A study of Mus musculus with 7 samples.

Results

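Macrophages keep their identity through a small set of transcription factors, and the genes of 8 of them are described here for the histone mark H3K79me2: Spi1, Cebpa, Cebpb, Runx1, Maf, Mitf, Tfec and Irf8. They were chosen by name, with earlier results of these data known. Their data are the rows (genomic regions) of the read-count table that overlap the RefSeq span of each gene by at least 1 bp. All 8 genes had rows, 63 of the 29397 in the table, and the row with the highest mean count stands for its gene (the top row).

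Cells were bone marrow-derived macrophages of C57BL/6 mice, grown for 7 to 8 days in medium with L929-conditioned medium as the source of M-CSF. During differentiation 3 cultures received 1 µM SGC0946 and 3 received the solvent DMSO, and chromatin fixed with 1% formaldehyde for 10 min was precipitated with an H3K79me2 antibody and sequenced. Both wild-type and knockout mice are mentioned in the growth protocol, with no word on which of them these cultures came from, and neither the age of the mice nor any pooling of animals is stated. The 3 samples of a group are called biological replicates in the design text, and the 1 input sample was not used here.

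Dimethylation of lysine 79 of histone H3 is written by a single enzyme, DOT1L, which travels with elongating RNA polymerase, so the mark lies over the transcribed part of active genes and is densest just after the start. SGC0946 occupies the cofactor site of DOT1L, and the mark is then lost mainly as histones are diluted and replaced. Among the factors, PU.1 (encoded by Spi1) and the C/EBP proteins open myeloid enhancers, RUNX1 acts on earlier blood progenitors and on the M-CSF receptor gene, IRF8 steers progenitors to the monocyte branch, c-MAF serves in differentiated macrophages, and MITF and TFEC are bHLH-zipper factors of the family that controls lysosomal genes.

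The libraries held 16.7 to 19.5 M counts with DMSO and 2.95 to 3.13 M with SGC0946, which is 17.1% of the DMSO mean. Marker genes fitted the labelled cell type: all 8 macrophage markers had a row, with 84.5 to 250 DMSO counts per kb in their top rows. The Cd68 row is shared by 3 coding genes and held 3701, 3896 and 4405 counts with DMSO, a large part of the macrophage sums given below. Of the markers of other cells, 0 of 6 B cell genes, 2 of 6 T cell genes (Lck and Tcf7, at most 4.67 DMSO counts per kb) and 1 of 6 granulocyte genes (Mpo, 7.33) had one. Dendritic cell markers had a row in 1 of 6 (Zbtb46, 124 DMSO counts per kb, in a row shared by 3 coding genes), erythroid and megakaryocyte markers in 2 of 6 (Klf1 at 8 and Pf4 at 90.5, above the lowest macrophage marker), and stromal and endothelial markers in 2 of 8 (at most 51.4). Summed over a list, DMSO libraries held 10574 to 12003 counts for macrophage, 1694 to 1985 for dendritic cell, 93 to 95 for erythroid and megakaryocyte, 63 to 102 for stromal, 3 to 4 for T cell and 1 to 7 for granulocyte markers. With SGC0946 the sums were 2273 to 2456, 217 to 241, 21 to 25, 17 to 28, 4 to 19 and 7 to 12 in the same order, and their part in the results was not tested.

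RefSeq lists start sites for 6 of the 8 genes, 10 in all. The 300-base windows shown here run from 250 bases before to 50 bases after a start on GRCm38.p6, the assembly that mm10 names. They are shown because a densely marked row begins within 288 bp of each of these starts except the inner Runx1 start, which lies inside the gene's top row. They are printed 5′ to 3′ on the gene's own strand. Capitals mark matches on either strand to 7 motifs. For PU.1 the letters searched were GAGGAA, and for C/EBP proteins TTGCNNAA. RUNX proteins bind TGTGGT, while MITF and TFEC bind the E-box CACGTG. The core of a MAF site was searched as TGCTGA, and an IRF site as a pair of GAAA blocks with 2 bases between them. The TATA box was searched as TATAAA.
Irf8, outermost start (chr8:120736108-120736407, plus strand): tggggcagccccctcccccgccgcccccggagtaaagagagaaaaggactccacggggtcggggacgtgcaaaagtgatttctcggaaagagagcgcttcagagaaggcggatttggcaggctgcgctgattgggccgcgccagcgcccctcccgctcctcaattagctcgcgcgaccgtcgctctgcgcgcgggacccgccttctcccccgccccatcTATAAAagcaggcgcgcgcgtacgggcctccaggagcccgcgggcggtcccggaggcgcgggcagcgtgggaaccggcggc
Cebpa (chr7:35119043-35119342, plus strand): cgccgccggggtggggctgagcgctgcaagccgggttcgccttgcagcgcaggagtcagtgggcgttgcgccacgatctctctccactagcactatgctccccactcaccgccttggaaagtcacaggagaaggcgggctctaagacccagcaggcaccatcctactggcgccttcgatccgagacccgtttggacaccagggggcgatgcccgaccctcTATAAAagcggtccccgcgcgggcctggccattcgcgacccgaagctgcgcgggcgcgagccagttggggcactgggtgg
Cebpb (chr2:167688665-167688964, plus strand): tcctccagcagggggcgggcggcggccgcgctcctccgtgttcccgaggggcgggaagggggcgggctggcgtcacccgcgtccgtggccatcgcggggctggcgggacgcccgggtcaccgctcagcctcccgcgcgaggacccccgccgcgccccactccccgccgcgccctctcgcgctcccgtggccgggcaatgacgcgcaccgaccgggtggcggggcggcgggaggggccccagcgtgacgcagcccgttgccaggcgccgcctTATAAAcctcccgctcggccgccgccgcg
Runx1, outermost start (chr16:92826025-92826324, minus strand): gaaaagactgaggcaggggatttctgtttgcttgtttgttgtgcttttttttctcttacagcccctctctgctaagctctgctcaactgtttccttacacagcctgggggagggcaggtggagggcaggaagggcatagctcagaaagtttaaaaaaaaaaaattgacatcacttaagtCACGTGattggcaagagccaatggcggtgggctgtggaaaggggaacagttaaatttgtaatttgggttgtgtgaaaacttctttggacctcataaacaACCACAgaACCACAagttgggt
Runx1, inner start (chr16:92697280-92697579, minus strand): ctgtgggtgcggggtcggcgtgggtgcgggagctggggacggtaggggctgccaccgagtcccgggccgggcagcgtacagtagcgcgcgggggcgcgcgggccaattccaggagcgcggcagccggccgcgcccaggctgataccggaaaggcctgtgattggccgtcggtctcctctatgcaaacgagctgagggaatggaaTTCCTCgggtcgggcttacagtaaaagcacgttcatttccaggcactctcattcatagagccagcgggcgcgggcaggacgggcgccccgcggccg
Mitf, outermost start (chr6:97806808-97807107, plus strand): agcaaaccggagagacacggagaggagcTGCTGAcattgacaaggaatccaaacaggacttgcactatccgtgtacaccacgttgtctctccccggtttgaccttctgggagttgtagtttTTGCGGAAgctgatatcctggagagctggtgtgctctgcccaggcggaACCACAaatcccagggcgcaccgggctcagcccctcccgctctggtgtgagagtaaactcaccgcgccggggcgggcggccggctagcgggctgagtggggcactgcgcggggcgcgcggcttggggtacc
Tfec (chr6:16898392-16898691, minus strand): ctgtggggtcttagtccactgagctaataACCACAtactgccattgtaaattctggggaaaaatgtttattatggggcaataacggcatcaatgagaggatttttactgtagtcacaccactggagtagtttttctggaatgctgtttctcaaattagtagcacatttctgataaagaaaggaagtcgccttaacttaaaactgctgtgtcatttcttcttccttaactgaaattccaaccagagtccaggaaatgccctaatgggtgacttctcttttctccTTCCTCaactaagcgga

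The windows ranged from CpG-rich to CpG-poor. Cebpb had 50 CG pairs, the outer Irf8 window 38, the inner Runx1 window 35, Cebpa 29 and the outer Mitf window 22, while Tfec had 3 and the outer Runx1 window 2, against a median of 7 over all 32851 windows of the RefSeq table. The windows not printed lay near that median, with 5 at the middle Mitf start, 8 at the innermost Mitf start and 8 at the inner Irf8 start. TATAAA stood in 4 of the 10 windows of these genes and in 13.6% of all windows. It began at position -30 from the start in Cebpa, at -31 in Irf8 and at 22 in Cebpb, whose listed start lies before the motif. TGTGGT was found in 3 windows (16.8% of all windows), among them the outer Runx1 window, where it occurs at positions 29 and 37 on the opposite strand, and CACGTG only in the outer Runx1 window, at -71 (7.15% of all). GAGGAA was present in 2 windows, the inner Runx1 window and Tfec (28.3% of all), TGCTGA in 3 (19.5%), TTGCNNAA in 2, both of Mitf (10.8%), and the pair of GAAA blocks in 0 (3.44%). No 2 matches shared a base, and a match is a description of letters, not a measured binding site.

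Without inhibitor, the top rows of all 8 genes were marked more densely than that of the median gene, from 339 ± 23.0 counts per kb (SD, n = 3) over Spi1 to 124 ± 8.77 over Mitf, while the median top row of the 9089 coding genes tested had 112. Spi1 lay above 97.8% of those genes, Irf8 (320 ± 23.5) above 96.8%, Cebpb (306 ± 33.6) above 96.1%, Maf (237 ± 17.3) above 88.6% and Cebpa (195 ± 14.2) above 80.2%. Tfec (146 ± 20.7), Runx1 (145 ± 11.2) and Mitf stood above 65.3%, 65.0% and 56.0%. The ranges of Spi1, Irf8 and Cebpb overlapped between the DMSO libraries, but within each of these libraries Spi1 was densest, with Irf8 next and Cebpb after it. Those of Tfec and Runx1 overlapped too, and there the order changed: Runx1 was denser in replicate 1 and Tfec in replicates 2 and 3. These orders were not tested. The other neighbours in the order of the means did not overlap.

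**Figure D1:**
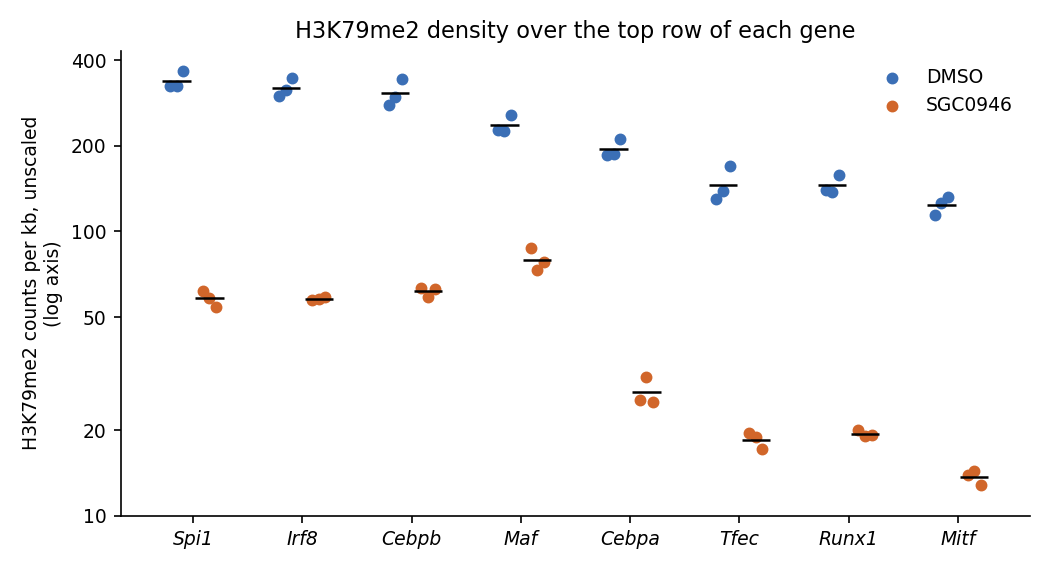
Unscaled H3K79me2 counts per kb (log axis) over the top row of each gene, with 1 point per library, DMSO in blue, SGC0946 in orange and a line at each group's mean (n = 3). DMSO values run from 339 (Spi1) down to 124 (Mitf), and with SGC0946 Maf is highest at 79.5 and Mitf lowest at 13.7.

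With SGC0946 every one of the 63 rows was lower than with DMSO in unscaled counts, with no overlap between the groups. The same held for 99.8% of the top rows of the 9094 coding genes tested. All 8 top rows fell in the edgeR quasi-likelihood test on unscaled counts, by a log2 fold change of between -1.58 (Maf) and -3.18 (Mitf), with adjusted p from 1.8e-54 to 1.3e-163. Of all regions tested in the table, 99.7% fell and 0.0201% rose, with a median log2 fold change of -2.63. Whether fewer cells carried the mark or each cell carried less of it cannot be told apart in these bulk samples, and the number of reads sequenced per library is not known. Every fall, retained percentage and p-value on unscaled counts takes the libraries to be equally deep, which these data do not show, while shares and within-library ratios do not rest on it.

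The genes differed in how much was left. Relative to the DMSO mean, the 3 SGC0946 libraries kept 36.9%, 30.9% and 32.8% of the Maf counts, 20.6%, 19.1% and 20.5% of Cebpb, 17.9%, 18.1% and 18.3% of Irf8, and 18.2%, 17.2% and 16.0% of Spi1. Less was left at Cebpa (13.1%, 15.7% and 12.9%), Runx1 (13.8%, 13.1% and 13.2%), Tfec (13.4%, 12.9% and 11.7%) and Mitf (11.2%, 11.5% and 10.3%). Maf stood clear of all the others, Cebpb clear of Irf8, Spi1 clear of Cebpa and Tfec clear of Mitf, whereas Irf8 and Spi1 overlapped, and so did the neighbours Cebpa, Runx1 and Tfec. The median top row of a tested coding gene kept 14%, with quartiles of 12.4% and 17%. As a result the order of the levels changed: with DMSO, Maf came after Spi1, Irf8 and Cebpb, and with SGC0946 it was the densest of the 8, at 79.5 ± 7.35 counts per kb (SD, n = 3) against 61.5 ± 2.52 for Cebpb.

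Changes in share, that is in a row's part of its library's total count, put each gene beside the fall of the whole library. By edgeR's quasi-likelihood test with Benjamini-Hochberg adjustment over all 23367 regions tested, 2 of the 8 genes rose in share (Maf and Cebpb, where 9.98% of tested genes did), 4 fell (Mitf, Tfec, Runx1 and Cebpa, where 50.1% did) and Irf8 and Spi1 did not pass. The median log2 fold change of the 8 was -0.14, beside -0.29 for all genes tested and -0.09 for all regions tested. In 6 of the 8 genes the libraries of the groups did not overlap in share: the same 2 were higher, as were 11.9% of tested genes, and the same 4 lower, as were 56.8%.

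**Figure D2:**
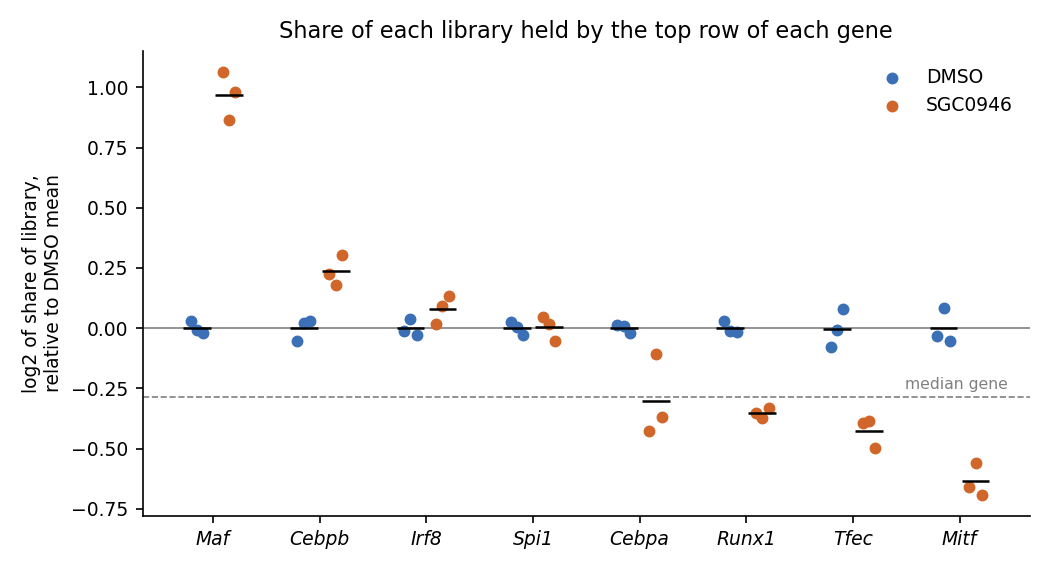
Share of each library's counts in the top row of each gene, as log2 relative to the DMSO mean, with 1 point per library (DMSO blue, SGC0946 orange), a line at each group's mean and a dashed line at the median gene tested, -0.29. Maf lies far above the other genes, Spi1 and Irf8 near 0, Cebpa near the median gene and Mitf lowest.

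Maf, the gene of the large MAF factor c-MAF, had a single row of 18.3 kb (chr8:115691221-115709544) that takes in the whole RefSeq span of 3.64 kb and 14.7 kb outside it. DMSO libraries held 4183, 4144 and 4711 counts there and SGC0946 libraries 1605, 1341 and 1426. All 3 SGC0946 values lie well under the DMSO values, yet as a share of the library they rose from 241 to 250 CPM (counts scaled to a common library total) to 446 to 512. The log2 fold change in share was 0.97 ± 0.04 (SE, adjusted p = 6.5e-30), and the retained 33.5% was above that of 97.6% of tested genes.

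Cebpb encodes the C/EBP factor that is induced in activated myeloid cells, and Cebpa the one that commits progenitors to the myeloid branch. Both genes have no intron and are short, with spans of 1.52 and 2.64 kb, and each had 1 row, which began 210 bp after the listed start for Cebpb (chr2:167689125-167694632) and 40 bp after it for Cebpa (chr7:35119333-35123666). At Cebpb, 1533, 1636 and 1892 counts with DMSO became 348, 323 and 346, and the share rose by log2 0.24 ± 0.06 (SE, adjusted p = 0.00121). At Cebpa, 804, 815 and 916 counts became 111, 133 and 109, and the share fell by log2 -0.29 ± 0.09 (adjusted p = 0.00748), which is the value of the median gene. Counts of Cebpb were 1.91 to 2.07 times those of Cebpa in DMSO libraries and 2.43 to 3.17 times in SGC0946 libraries, without overlap. Such a ratio within a library does not depend on how libraries are scaled, and its log2 rose by 0.54 (exact two-sided permutation p = 0.1, as small as 3 against 3 can give, and 0.125 adjusted over 5 ratios of gene pairs). The Cebpb row also covers the non-coding gene A530013C23Rik, and 4.20 kb of its 5.51 kb lie outside the Cebpb span, so its counts cannot be credited to Cebpb alone. Of the 4.33 kb of the Cebpa row, 1.74 kb lie outside the Cebpa span. The Cebpa call is weak: without SGC0946 replicate 1 or replicate 3 the adjusted p was 0.120 and 0.0511, and with TMM factors, which shift the median of all regions by more than 0.1, it was 0.225.

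Spi1, whose product PU.1 is required for all macrophages, had 3 rows. The top row of 19.1 kb (chr2:91096423-91115543) held 86.2% of the gene's counts, with 6234, 6229 and 6993 in DMSO libraries and 1183, 1114 and 1040 in SGC0946 libraries. Its share was 358 to 373 CPM with DMSO and 352 to 378 with SGC0946, a log2 change of 0.00 ± 0.04 (SE, adjusted p = 0.959), and the groups overlapped. The middle row of 6.72 kb (chr2:91084957-91091672) had 921, 920 and 1025 counts with DMSO and 128, 112 and 96 with SGC0946, so that it kept 11.7% and its share fell by log2 -0.54 ± 0.09 (adjusted p = 6.6e-07). The small row (chr2:91083079-91084014) kept 17% of 84.3 counts. Counts in the top row were 6.77 to 6.82 times those in the middle row with DMSO and 9.24 to 10.8 times with SGC0946. This pair of rows, like the other pairs within a gene, was picked after its values were seen (exact permutation p = 0.1, adjusted 0.133 over 4 pairs of rows). RefSeq start windows for Spi1 and Maf are not in the table used, so positions from the start are not given for them.

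Irf8 had 2 rows that behaved differently. The row at the start (chr8:120736141-120743325) begins 217 bp before the outermost listed start and takes in both starts that RefSeq lists. It held 2157, 2262 and 2488 counts with DMSO and 411, 416 and 421 with SGC0946, and its share did not pass the test (log2 0.08 ± 0.06 SE, adjusted p = 0.317). The downstream row, from 7.78 to 18.1 kb after the start (chr8:120744142-120754480), held 1340, 1316 and 1448 counts with DMSO and 142, 122 and 124 with SGC0946. It kept 9.45%, the lowest value of all 63 rows, and its share fell by log2 -0.85 ± 0.08 (adjusted p = 2.4e-14). The start row held 1.61 to 1.72 times the counts of the downstream row with DMSO and 2.89 to 3.41 times with SGC0946 (log2 difference 0.94, exact permutation p = 0.1). Over 857 coding genes with a row at the outermost listed start and a further row downstream, both of at least 50 mean counts, the start row had the higher fold change in 52.3%, the median difference was 0.02, and the Irf8 difference exceeded that of 92.8% of them. With all counts of the gene summed, Irf8 fell in share (log2 -0.20, adjusted p = 0.000582), so what is said of Irf8 depends on the row that stands for it. Irf5, the related factor of inflammatory macrophages, kept 17.1% in its top row, and the ratio of Irf8 to Irf5 overlapped between the groups (1.00 to 1.03 with DMSO, 1.02 to 1.12 with SGC0946, exact permutation p = 0.2).

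Runx1, which encodes a DNA-binding partner of CBFβ and is transcribed from 2 promoters, carried the mark over 91.5% of its 225 kb, in 16 rows. The top row of 35.2 kb (chr16:92666857-92702069) spans the inner listed start, whose CpG-rich sequence is printed above, and held 4926, 4855 and 5569 counts with DMSO and 707, 670 and 676 with SGC0946. The densest row, at 194 DMSO counts per kb, was instead the outermost one (chr16:92802433-92825786), which begins 288 bp after the outer start and went from 4449, 4138 and 5002 counts to 558, 562 and 519. These 2 rows kept 13.4% and 12.1%, and their shares fell by log2 -0.35 ± 0.05 and -0.50 ± 0.05 (SE, adjusted p = 1.9e-09 and 2.2e-13). The row over the inner start held 1.11 to 1.17 times the counts of the outer row with DMSO and 1.19 to 1.30 times with SGC0946 (log2 difference 0.15, exact permutation p = 0.1). Set against Spi1, the Runx1 top row fell further: Spi1 counts were 1.26 to 1.28 times those of Runx1 with DMSO and 1.54 to 1.67 times with SGC0946 (log2 difference 0.36, exact permutation p = 0.1, adjusted 0.125). Density dropped from 194 to 48.7 DMSO counts per kb over the first 4 rows. It was 82.4, 116, 88.1 and 92.3 in the rows that follow and 145 in the row of the inner start. In all, 11 of the 16 rows fell in share and none rose. Over all members, 25 of the 56 rows tested fell (23.3% of all regions did) and 2 rose (6.16%), and all 25 averaged 50 counts or more, as did 37 of the 56.

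Mitf and Tfec belong to the MiT family, and Mitf alone stood clear of the other 7 as the gene that kept least. The 214 kb span of Mitf was split into 36 rows. The first (chr6:97806791-97812393) starts 267 bp before the outermost listed start and was the densest, with 249 DMSO counts per kb; it went from 1304, 1389 and 1499 counts to 173, 151 and 153 and kept 11.4%. The top row, of 20.7 kb and 23.1 to 43.8 kb after that start (chr6:97830165-97850907), went from 2378, 2618 and 2735 to 288, 297 and 266, a log2 change in share of -0.63 ± 0.06 (SE, adjusted p = 6.8e-14). Its retained 11.0% was below that of most genes: only 6.48% of tested genes kept less. The 13 rows that begin within 100 kb of the outermost start had 101 DMSO counts per kb together and kept 11.5%, and 8 of them fell in share. The 23 rows farther along had 43.3 counts per kb and kept 14.6%; of these, 10 measure 500 bp, 17 could be tested, and 1 fell, the row of 12.6 kb over the middle listed start. The row over the innermost listed start is 500 bp long and held 18, 14 and 21 counts with DMSO and 2, 1 and 3 with SGC0946. The limit of 100 kb was chosen after the data were seen.

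Tfec, whose expression is largely restricted to macrophages and their relatives, carried the mark over the first 29.7 kb of its 67.5 kb in 2 rows, and another row of 500 bp had 13 DMSO counts on average. The start row (chr6:16884285-16898564) went from 1858, 1980 and 2419 counts to 279, 270 and 245 and fell in share by log2 -0.43 ± 0.06 (SE, adjusted p = 8.3e-08). The next row (chr6:16868706-16883701) kept 13.6% against 12.7% for the start row, and their ratio overlapped between the groups (exact permutation p = 0.4). Tfec and Mitf top rows were in a ratio of 0.756 to 0.884 with DMSO and 0.909 to 0.969 with SGC0946 (log2 difference 0.21, exact permutation p = 0.1, adjusted 0.125). With all rows of each gene summed the difference was 0.13 (exact permutation p = 0.2). Tfeb, the family member best known for lysosomal genes, fell in share as well and kept 10.8%, and the fourth, Tfe3, did not pass, so that 3 of the 4 MiT genes fell, where 50.1% of all tested genes did.

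**Figure D3:**
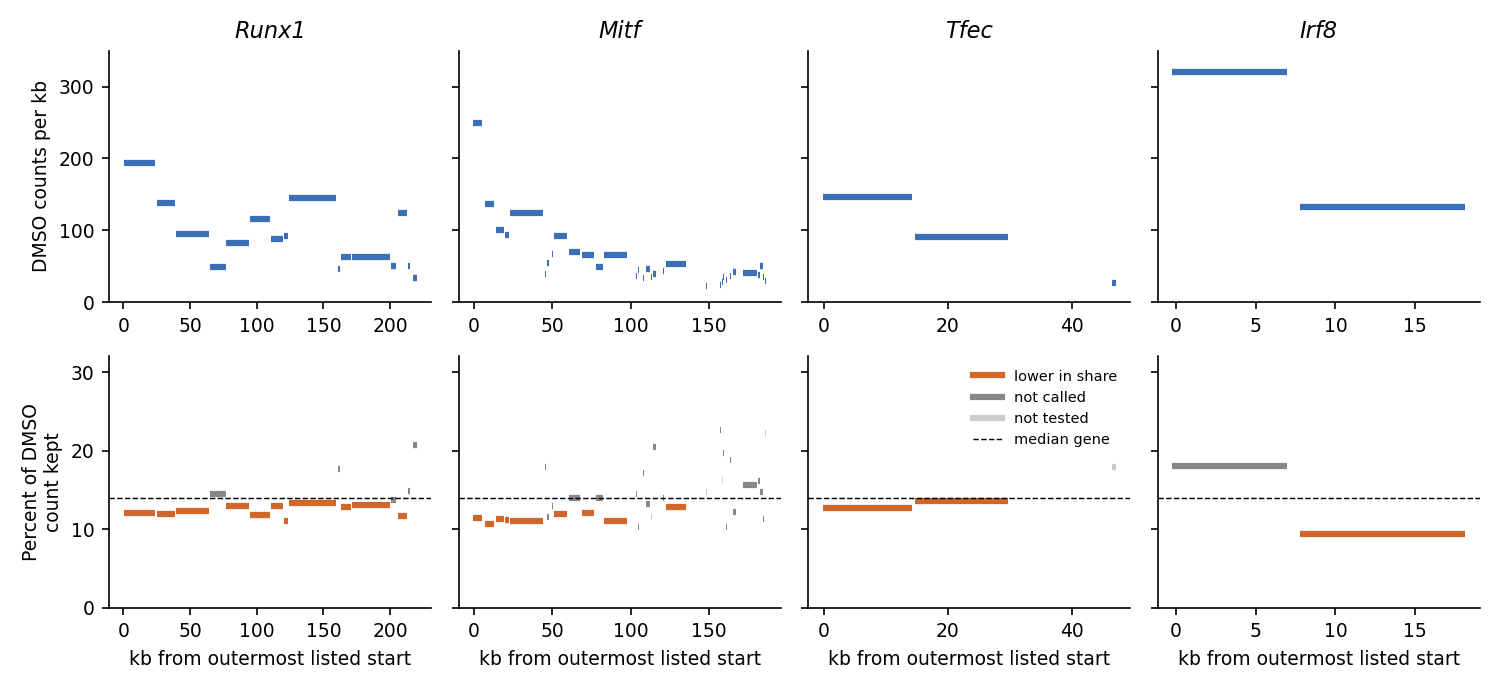
Rows of the 4 longer genes with listed starts, drawn to scale by kb from the outermost start, with DMSO counts per kb above and the percent of the DMSO count kept with SGC0946 below (orange, lower in share; grey, not called; light grey, not tested; dashed line, median gene at 14%). Density falls along Mitf and Tfec and is high again at the inner Runx1 start, and the 2 Irf8 rows keep 18.1% and 9.45%.

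Among these 8 genes, retention went with density. Over the 8 genes, Spearman's rho of DMSO counts per kb and percent kept was 0.74, and 0.82 without Maf (7 genes); these are descriptions of genes that share the same libraries, and DMSO counts enter both quantities. Over the 7942 tested genes averaging 50 counts or more rho was 0.18, and retention there was lowest at middling density. In 10 density classes of equal size, with class 10 the densest, those genes kept a median of 12.4% in class 5, which holds Mitf, 12.6% in class 6 with Runx1, 12.9% in class 7 with Tfec, 13.6% in class 8 with Cebpa, 15.2% in class 9 with Maf and 20.3% in class 10 with Spi1, Irf8 and Cebpb. For 6 of the 8 genes the retained percentage lay between the quartiles of their own class. Maf at 33.5% was above the upper quartile of its class (18.7%), and Mitf at 11.0% below the lower quartile of its class (11.5%). The classes were drawn after the values were seen. The part of density in the differences between the genes was not tested.

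**Figure D4:**
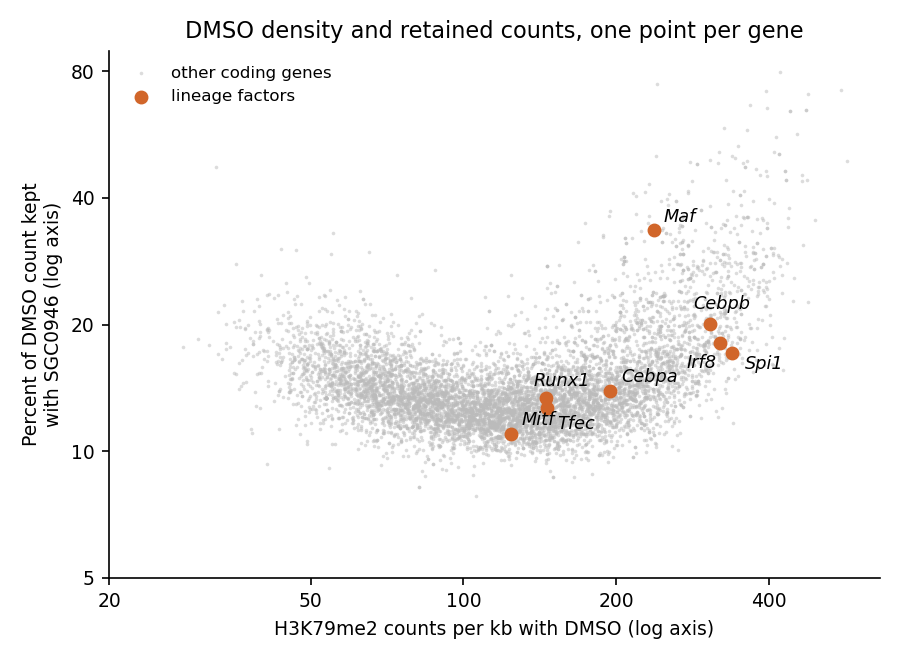
DMSO counts per kb (log axis) and percent of the DMSO count kept with SGC0946 (log axis), with 1 grey point for the top row of each coding gene averaging 50 counts or more and orange points for the 8 factors. All 8 lie inside the cloud, Maf above the upper quartile of genes of its density (18.7%) and Mitf below the lower quartile of genes of its own (11.5%).

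Most of the genes nearest to the factors in density and change in share have quite other functions. With 6123 genes to search, a close match is likely for any gene inside the cloud, so the closeness itself is not a result. By the distance in the plane of log2 DMSO density and log2 change in share, among 6123 genes whose row holds no other coding gene and averages 50 counts or more, the nearest gene to Spi1 was Hdgf (339 counts per kb, 17.2% kept), to Cebpb Mcmbp (303 and 20.0%), to Runx1 Pkn2 (144 and 13.4%), to Mitf Abca3 (124 and 11.0%), to Tfec Ruvbl2 (146 and 12.7%), to Cebpa Rab5a (195 and 14%) and to Irf8 the integrin gene Itgb2 (317 and 18.0%). Itgb2 is also among the textbook macrophage targets described below. Maf had the most distant neighbour, Wtap (247 counts per kb, 33.5% kept), at 0.06 against at most 0.02 for the other 7.

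The families around the factors went both ways in share, and their counts stand beside 9.98% of all tested genes that rose and 50.1% that fell. Of 17 ETS genes, PU.1's family, 13 had a row and 12 were tested: Elf1 (23.6% kept) and Elf2 (19.4%) rose, 7 fell, among them Etv6 (11.6%) and Gabpa (11.7%, in a row shared with another coding gene), and 3 did not pass. Among 6 tested C/EBP genes Ddit3, the stress-induced member, rose with Cebpb (19.8% kept), Cebpg fell with Cebpa (14.7%, in a row shared by 3 coding genes), and 2 did not pass. Of 5 tested RUNX genes and cofactors, Runx1 and its partner Cbfb (13.8% kept) fell and 3 did not pass. In the 7 tested genes of the MAF and BACH group, Bach1 (19.2%) rose with Maf, the small MAF genes Mafk (12.0%) and Mafg (15.1%, in a row shared with another coding gene) fell, and 3 did not pass. Of 6 tested IRF genes none rose, Irf1 (14.1%), Irf3 (12.9%, in a row shared with another coding gene) and Irf2 (15.0%, named after its value was seen) fell, and 3 did not pass. The medians of these lists were log2 -0.20 for ETS, -0.20 for C/EBP, 0.14 for RUNX, 0.17 for MAF, -0.53 for MiT and -0.22 for IRF genes, beside -0.29 for all genes tested. The RUNX median is the value of Cbfa2t3 (SE 0.30), which averaged 53.3 DMSO and 10 SGC0946 counts. Runx2 and Runx3, also above 0, averaged 17 and 15.7 SGC0946 counts, while the better counted Runx1 and Cbfb had log2 -0.35 and -0.31.

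Of 34 other myeloid transcription factors tested, 11 rose, 13 fell and 10 did not pass (median log2 -0.05), where 9.98% of all tested genes rose and 50.1% fell. Klf6, a zinc finger factor of activated myeloid cells, held 3285, 3625 and 3998 counts with DMSO and 1649, 1430 and 1464 with SGC0946, or 41.6%, and Id2, an inhibitor of bHLH factors, kept 34.0%. At the other end Rxra, the shared partner of nuclear receptors, kept 9.80%, and Nfatc1, the osteoclast factor, 11.0%. Of 23 tested textbook macrophage targets of the factors, 10 rose, 2 fell and 11 did not pass (median log2 0.09), beside the same 9.98% and 50.1%. The 10 are not all separate loci: C1qa, C1qb and C1qc lie together within chr4:136881337-136898768. Cd68 also rose, in a row shared by 3 coding genes. The complement gene C1qb (36.6% kept) and Gpnmb, a MITF target (34.9%), had the highest changes, while the fallers were Ncf1 of the NADPH oxidase (13.3%) and Ostm1 of lysosomes (13.2%). Lineage factors of other cells were mostly without a row, with 4 of 30 covered, and 3 of these, Gata4, Tcf7 and Klf1, had at most 8 DMSO counts per kb in rows of 500 bp. The fourth, Zbtb46, shares its row with other coding genes.

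**Figure D5:**
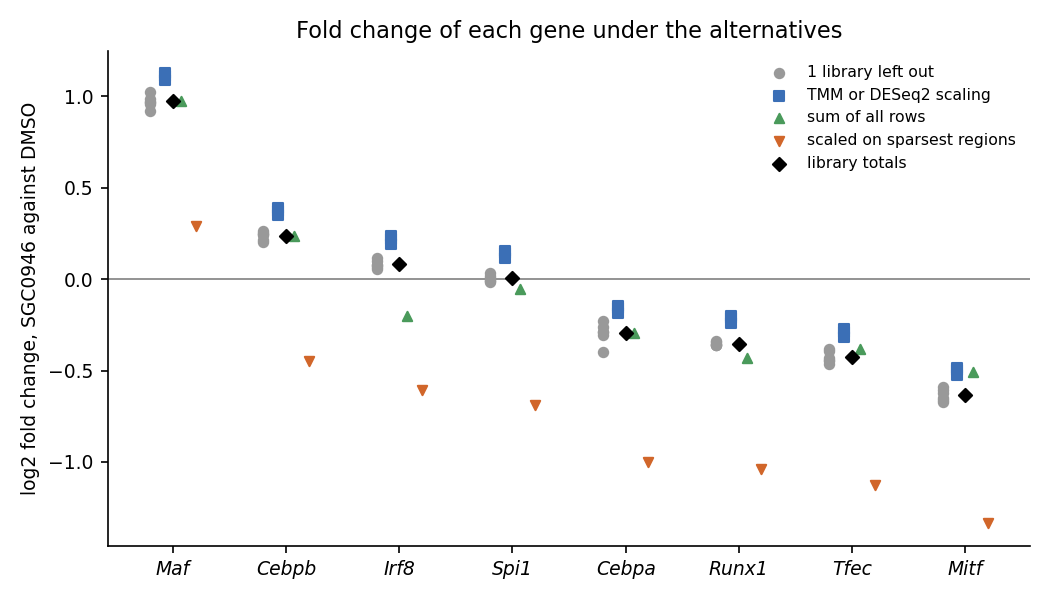
Log2 fold change of each gene's top row in share of the library (SGC0946 against DMSO) on library totals (black), with 1 library left out (grey), with TMM factors or DESeq2 scaling (blue), with all rows of the gene summed (green) and with scaling on the sparsest regions (orange). Maf is highest and Mitf lowest with each library left out and with summed rows, and scaling on the sparsest regions moves all 8 down, Maf to 0.29 and Mitf to -1.34.

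The place of zero in these fold changes depends on the scaling. A scaling moves all genes by about the same amount and so leaves their order as it is. In the 7 settings that change the counts behind a gene, by leaving out a library or summing all rows, Maf was highest, Cebpb next and Mitf lowest. With summed rows Spi1 came before Irf8 and Runx1 after Tfec. Rises made up 20.9% of all regions called on library totals, 35.7% after TMM scaling, 38.2% after scaling by DESeq2 size factors, 47.0% in DESeq2's Wald test and 2.54% with scaling on the 25% of regions with the fewest counts per kb. Under that last scaling Cebpb, Irf8 and Spi1 were called lower (log2 -0.45, -0.61 and -0.69) and Maf did not pass (log2 0.29, adjusted p = 0.191). Of the 23367 regions tested, 13467 were called lower there.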

How the data were processed

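H3K79me2 ChIP-seq was analysed from a deposited table of whole-number read counts in 29397 shared regions for 3 DMSO and 3 SGC0946 libraries. The submitters' processing notes name the mm10 build, R 3.6.3 and ChIPseeker 1.20.0, as well as bedtools 2.27.0, HOMER 4.11.1 and HISAT2. Region calling, duplicate removal and the counting tool are not given in the sources used here, and each could change the counts. Region starts were read as zero-based and are printed 1-based. Regions were joined to RefSeq spans of GRCm38.p6 by an overlap of at least 1 bp, without exon positions. The start windows come from RefSeq on the same assembly.

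Tests on the counts used edgeR 4.0.16 (R 4.3.3; filterByExpr, quasi-likelihood F test, Benjamini-Hochberg adjusted p under 0.05) on library totals and on unscaled counts. Standard errors were derived from each F statistic and fold change. The biological coefficient of variation was 3.57%. The script was tested on simulated data. Ratios were compared by exact two-sided permutation. Alternatives were TMM factors, DESeq2 1.42.0 size factors and Wald test, scaling on sparse regions, other count filters, summed rows, a replicate block and leaving out each library. Named list genes were up to 2 called genes at each end of a list (mean of at least 50 counts), the partners in the ratios and the nearest gene to each factor. One of the 5 ratios is not reported here. The genes and lists were chosen with earlier results of these data known. Replicate pairs differed beyond sampling noise (chi-square per degree of freedom 1.32 to 2.38). The edgeR p-values set each difference between the groups against the spread between these cultures, estimated with help from all regions tested. Whether the cultures came from different mice is not stated. Python 3.11.15, pandas 2.3.3, numpy 2.4.6, scipy 1.17.1 and matplotlib 3.10.9 were used.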

Additional observations from a re-analysis of the deposited data

How the results depend on the processing

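For single genes, 96 of 112 fold changes in share and 72 of 72 in unscaled counts under alternatives kept their direction and their side of the threshold. Scaling on the 25% of regions with the fewest counts per kb brought the genes called higher in share from 2 to 0 and those called lower from 4 to 7. Of all 23367 regions tested, 13467 were lower and 351 higher under that scaling, against 5439 and 1440 on library totals. The same scaling turned Cebpb to log2 -0.45, Irf8 to -0.61 and Spi1 to -0.69. Summing all rows of a gene turned Irf8 to -0.20, Spi1 to -0.055 and the log2 difference of the Irf8 to Irf5 ratio from 0.08 to -0.20. Spi1, near 0 throughout, changed sign without DMSO replicate 3 (-0.01), SGC0946 replicate 1 (-0.017) or SGC0946 replicate 2 (-0.0023), within a leave-one-out range of -0.017 to 0.033. Irf8 passed as higher with TMM factors (adjusted p = 0.0082) and DESeq2 size factors (0.0144), and Cebpa was lost with TMM factors (0.225), DESeq2 size factors (0.287), the DESeq2 Wald test (0.320) and without SGC0946 replicate 1 (0.120) or 3 (0.0511). Over the alternatives the adjusted p of Mitf was at most 1.8e-07, of Tfec 0.00414 and of Runx1 0.0487. All 8 genes were called lower in unscaled counts under every alternative run on those. Already without an alternative, 24820 of the 24895 regions tested on unscaled counts were lower, so this is not particular to these genes.

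Both groups number their samples in the same way, and the labels do not say what the numbers mark. Same-numbered samples did not deviate together (correlations 0.01, -0.11 and -0.01), and the numbers were not taken as pairs. Sampling noise in the SGC0946 libraries can hide a shared deviation, so these correlations cannot exclude a pairing. With the replicate block 2 genes were called higher and 4 lower in share and all 8 lower in unscaled counts, the same counts as without it, and 5202 regions in all were lower in share against 5439. Left out 1 library at a time, 2 genes were called higher and 3 to 4 lower.

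Regions with few counts limit what can be seen: 7 of the 63 rows, with a mean of at most 9.67 counts, could not be tested in share.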
